A study of Homo sapiens with 4 samples.

Results

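The MYC, MAX and MXD network was examined here in 786-O renal carcinoma cells without and with restored VHL. Its members were taken by name as MYC, MAX, MXD1, MXD3, MXD4, MXI1, MNT and MGA, and these are 8 of the 12912 genes in the count table. All 8 passed the filter on low counts and were among the 12335 genes tested.

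The line 786-O, from a clear cell renal carcinoma, has no functional VHL, the substrate-recognition subunit of a ubiquitin ligase that marks hypoxia-inducible factors for degradation. RNA-seq was made from 2 libraries of 786-O-Ctrl, which the labels give as wild type and VHL-null, and from 2 of 786-O-VHL, in which VHL was restored with a retroviral vector for an HA-tagged protein. The libraries of both groups came from the sublines labelled TR, which carry a triple reporter of GFP, luciferase and thymidine kinase, and both were grown in RPMI1640 with serum. Each group was therefore 1 subline, and nothing in the labels says that its libraries came from separate cultures, so that the p-values measure only the spread between these samples, which may be technical.

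MYC is a transcription factor that binds E-box DNA as a dimer with MAX and raises the expression of genes for ribosome production, translation and metabolism. MXD1, MXD3, MXD4, MXI1 and MNT compete for the same partner and recruit the SIN3-HDAC corepressor to the same sites, whereas MGA carries MAX into a polycomb complex named PRC1.6 that silences germline genes. In VHL-deficient kidney cancer the network is often discussed because hypoxia-inducible factors have been described to alter MYC-MAX dimers and to induce MXI1. The paper states that 786-O expresses no HIF1α and that restored VHL diminished HIF2α.

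VHL itself was at 42.9 and 43.9 CPM in 786-O-Ctrl and at 178 and 163 CPM in 786-O-VHL, where CPM are read counts brought to a common library total after TMM correction. Its log2 fold change of 1.96 (SE 0.0706) had an adjusted p of 2.86e-19 (edgeR quasi-likelihood test, Benjamini-Hochberg over all genes tested), in the direction the group labels give. The libraries held between 2807779 and 22141263 counts, the shallowest being 786-O-VHL replicate 1, in which 3 counts equal 1.02 CPM against 0.142 to 0.199 CPM in the others. Both 786-O-Ctrl columns carry the same name, and they are called here the deeper and the shallower library. Of the 9 renal and carcinoma markers examined, all were detected, 5 were lower and 1 was higher in 786-O-VHL (31.9% and 32.6% of all genes tested were called so), 3 were not called, and their summed level was 3332 to 3343 CPM in the controls against 1975 to 1978 CPM with restored VHL. VIM, a filament protein and the most abundant of these markers, was at 1668 and 1699 CPM in 786-O-Ctrl and at 751 and 709 CPM in 786-O-VHL. PAX8, which marks renal epithelium, was at 277 and 272 CPM in 786-O-Ctrl and at 166 and 137 CPM in 786-O-VHL, whereas the kidney cadherin CDH16 went from 6.93 and 8.70 CPM up to 29.8 and 24.7 CPM. These markers are named after their values were seen. Of 15 markers of other cell types, 11 were not analysed here. The other 4 summed to 161 to 170 CPM in 786-O-Ctrl and to 73.3 to 76.0 CPM in 786-O-VHL, most of it from NEFL at 155 and 146 CPM in the controls and 59.7 and 59.8 CPM with restored VHL, while COL1A1 and ACTA2 stayed under 10 CPM and PECAM1 under 1 CPM. The part of these differences in the results that follow was not tested, and as in any bulk sample a lower RNA content per cell and fewer cells of a kind cannot be told apart.

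Because MYC-MAX and MXD-MAX dimers bind the E-box CACGTG, the promoters of the members were searched for this motif. RefSeq promoter sequences (GRCh38.p14, from 250 bases before to 50 after a transcription start) were at hand for 7 of the members with 12 starts, and MYC was not among them. The palindrome CACGTG was found in the promoters of MXD4 and MNT, as against 7.26% of all 35116 promoters searched the same way. The 30-base windows that hold it follow, 5′ to 3′ on the strand of the gene, with the E-box in capitals. They lie at chr4:2262330-2262359 and chr17:2401236-2401265, both on the minus strand.
MXD4: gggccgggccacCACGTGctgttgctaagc
MNT: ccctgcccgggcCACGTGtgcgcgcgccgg
The E-box began 238 bases before the MXD4 start and 193 bases before the MNT start. The shorter letters ACGTG, the core that hypoxia-inducible factors recognise and which is part of CACGTG, were found on either strand in 21.4% of all promoters. Outside the windows shown they occurred at 1 start each of MAX, MXI1 and MGA. The other form of that core, GCGTG, was found in 36.5% of all promoters and in those of MXD3, MXI1 and MGA, and none of these letters was found in the window searched for MXD1. A match is a description of the sequence only.

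All 8 members differed between the groups at an adjusted p below 0.05, with 6 higher and 2 lower in 786-O-VHL. This has to be read against the whole table, in which 64.5% of the genes tested passed the same threshold, 32.6% as higher and 31.9% as lower. In none of the 8 did the libraries of the groups overlap, which was true of 80% of all genes tested. The median log2 fold change was 0.73 over the members and 0.02 over all genes tested. MYC and MXD1 had absolute fold changes above those of 90.6% and 91.9% of all genes tested, whereas MNT and MXD4, at 53.3% and 44.3%, were in the middle of the table.

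**Figure D1:**
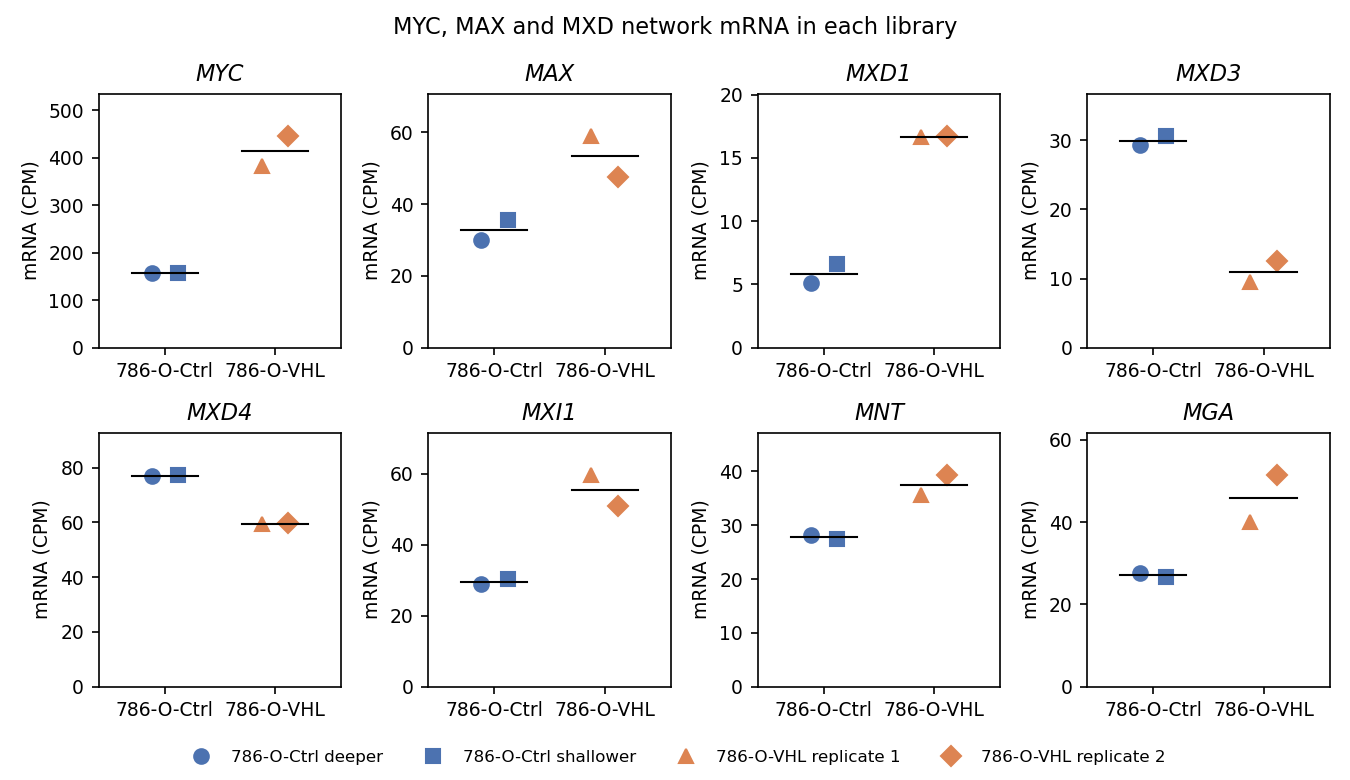
Level of each member in each of the 4 libraries, in TMM-normalised CPM on linear axes from 0, with 1 panel per gene, points for libraries and horizontal lines for group means. MYC, MAX, MXD1, MXI1, MNT and MGA lie higher in 786-O-VHL, and MXD3 and MXD4 lie lower.

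MYC (ENSG00000136997.19, chr8:128747680-128755197 on the plus strand of GRCh37), the activator of the network, was at 158 CPM in both 786-O-Ctrl libraries and at 384 and 446 CPM in replicates 1 and 2 of 786-O-VHL. Both libraries with restored VHL were far above the control ones, and the spread between them was larger than that between the controls. The mean rose from 158 ± 0.243 to 415 ± 44.3 CPM (SD, n = 2 each). The log2 fold change was 1.41 (95% confidence interval 1.27 to 1.55, edgeR adjusted p = 1.77e-16), or 2.66-fold. These values rest on 1131 to 7516 reads per library.

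The 3 genes whose profile over the 4 libraries was nearest to that of MYC, among 9234 genes with a mean of at least 10 CPM, were JUNB, KDM7A and C1orf116. The likeness was measured as Euclidean distance between centred log2(CPM + 0.5) values, and it was 0.0584, 0.0657 and 0.0722 in this order. JUNB, a subunit of the AP-1 transcription factor, was at 105 and 109 CPM in 786-O-Ctrl and at 257 and 292 CPM in 786-O-VHL. KDM7A, a histone demethylase, was 2.74-fold higher (12.4 ± 0.561 to 32.7 ± 3.14 CPM) and C1orf116 2.84-fold (6.23 ± 0.257 to 17.3 ± 1.38 CPM; SD, n = 2 each). With 4 libraries in 2 groups, this measure is set largely by the fold change between the groups.

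MAX (ENSG00000125952.19, chr14:65472892-65569413, minus strand) is the common dimer partner of the other members. It was at 29.9 and 35.6 CPM in 786-O-Ctrl and at 59.0 and 47.6 CPM in 786-O-VHL. The libraries within each group were apart by several CPM, but the groups did not overlap. The log2 fold change was 0.64 (95% confidence interval 0.43 to 0.85, edgeR adjusted p = 4.68e-06). It was 0.40 (adjusted p = 0.0318) when every library was thinned, in a single random draw, to the depth of the shallowest. MAX shares 822 exon bases with FNTB on the opposite strand, which had a log2 fold change of -0.51 with an adjusted p of 0.105 and whose libraries overlapped between groups.

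MXD1 (ENSG00000059728.11, chr2:70124820-70170077, plus strand), a repressor known to rise as cells leave the cycle and differentiate, was the least abundant member in 786-O-Ctrl. It was at 5.13 and 6.58 CPM there and at 16.6 and 16.7 CPM in 786-O-VHL. The difference between groups was several times the gap between the control libraries. It was higher by a log2 fold change of 1.53 (95% confidence interval 1.17 to 1.89, edgeR adjusted p = 1.36e-08), the highest point estimate of the members, although its interval overlapped that of MYC. In 786-O-VHL replicate 1 it rested on 49 reads. The 237 exon bases it shares with SNRNP27 on the same strand belong to a gene with a log2 fold change of -0.09 (adjusted p = 0.501).

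MXI1 (ENSG00000119950.21, chr10:111967363-112047123, plus strand), also named MXD2, was at 28.8 and 30.2 CPM in 786-O-Ctrl and at 59.7 and 50.9 CPM in 786-O-VHL. Both libraries with restored VHL were above both controls, with the higher value in the shallow replicate 1. The log2 fold change of 0.85 (95% confidence interval 0.66 to 1.05, edgeR adjusted p = 7.88e-09) was upward.

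MXD3 (ENSG00000213347.10, chr5:176728462-176739758, minus strand), the MXD protein described in cycling cells during S phase, went the other way. It was at 29.2 and 30.6 CPM in 786-O-Ctrl and at 9.50 and 12.5 CPM in 786-O-VHL. The controls lay close together and far above both libraries with restored VHL. The log2 fold change was -1.33 (95% confidence interval -1.60 to -1.06, edgeR adjusted p = 7.13e-10), with 28 reads in 786-O-VHL replicate 1. The value for MXD3 is uncertain because it shares 926 exon bases with RAB24 on the same strand and 1148 with PRELID1 on the opposite strand, and the use of strand in counting is not given in the sources used here. PRELID1, which was more abundant, fell from 144 ± 6.17 to 86.2 ± 7.29 CPM (SD, n = 2 each), while RAB24 rose with a log2 fold change of 0.56. Their part in the MXD3 value was not tested.

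MXD4 (ENSG00000123933.17, chr4:2249159-2263836, minus strand), a repressor expressed in many resting tissues, was the most abundant of the repressors in 786-O-Ctrl. It was at 76.8 and 77.3 CPM there and at 59.4 and 59.7 CPM in 786-O-VHL. Libraries within each group were nearly equal, and the groups were clearly apart. The log2 fold change was nevertheless the smallest of the members, at -0.37 (95% confidence interval -0.52 to -0.22, edgeR adjusted p = 7.05e-05). It lost its call at equal depth (-0.27, adjusted p = 0.0597), where 52.5% of all genes were called, and was -0.24 (adjusted p = 0.00579) when libraries were scaled by their totals alone.

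MNT (ENSG00000070444.15, chr17:2287367-2304398, minus strand), a larger repressor expressed in proliferating and resting cells alike, was at 28.1 and 27.4 CPM in 786-O-Ctrl and at 35.6 and 39.4 CPM in 786-O-VHL. Both libraries with restored VHL were higher, by a modest step. This gave a log2 fold change of 0.47 (95% confidence interval 0.26 to 0.67, edgeR adjusted p = 0.000193), and it was 0.33 (adjusted p = 0.0824) at equal depth and 0.35 (adjusted p = 0.074) without 786-O-VHL replicate 2.

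MGA (ENSG00000174197.16, chr15:41913332-42065279, plus strand), the giant member with a T-box domain beside its MAX-binding domain, was at 27.7 and 26.7 CPM in 786-O-Ctrl and at 40.0 and 51.5 CPM in 786-O-VHL. The control libraries were close, while those with restored VHL differed from each other by more than the controls did. On the log2 scale the fold change was 0.83 (95% confidence interval 0.62 to 1.04, edgeR adjusted p = 4.86e-08), and without 786-O-VHL replicate 2 it was 0.55 (adjusted p = 0.00491).

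**Figure D2:**
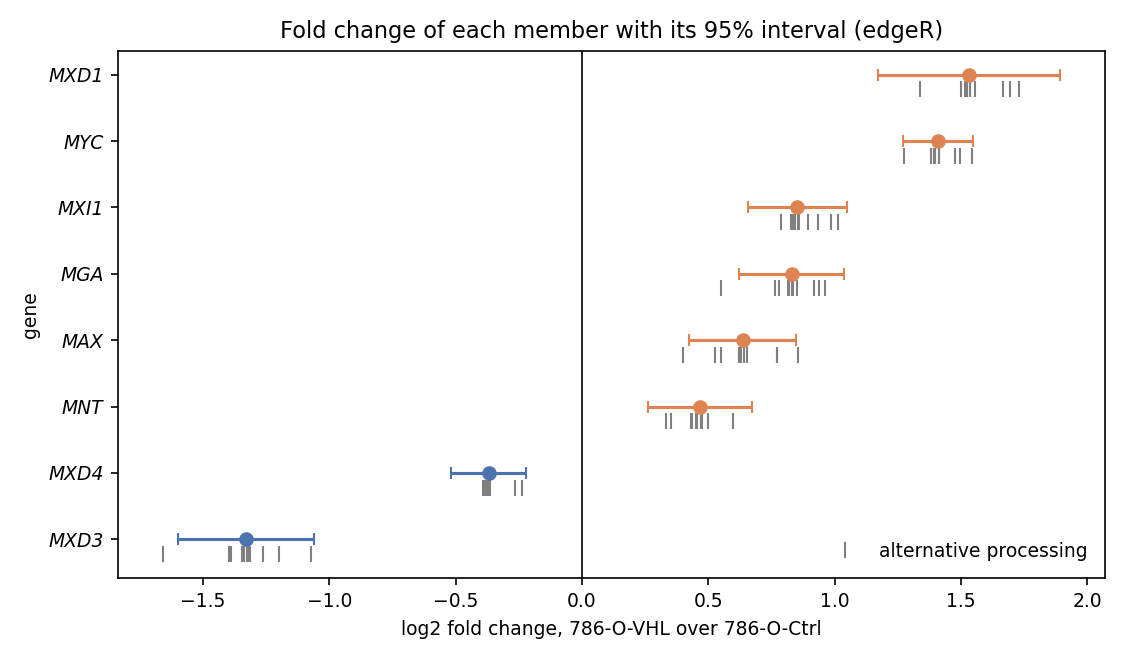
Log2 fold change of each member in 786-O-VHL over 786-O-Ctrl from the edgeR fit (points) with 95% confidence intervals (bars), and grey ticks for its value under each of 11 alternative ways of processing. MXD1 and MYC have the highest values at 1.53 and 1.41, MXD3 the lowest at -1.33, and no interval reaches 0.

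Levels of different genes were compared per length, as RPKM, which divides CPM by the length of the union of annotated exons in kilobases. In 786-O-Ctrl the order was MYC at 25.9 ± 0.0398, MXD4 at 11.2 ± 0.0588, MXD3 at 6.31 ± 0.207, MAX at 5.23 ± 0.637, MXI1 at 4.999 ± 0.169, MNT at 3.19 ± 0.0540, MGA at 1.35 ± 0.0341 and MXD1 at 0.922 ± 0.162 RPKM (SD, n = 2). The libraries overlapped only between the neighbours MAX and MXI1. In 786-O-VHL, MYC remained first at 67.9 ± 7.25 RPKM, and MXI1 at 9.36 ± 1.05, MXD4 at 8.66 ± 0.0387 and MAX at 8.52 ± 1.29 RPKM followed without separating from each other. MNT came next at 4.31 ± 0.305 RPKM. MXD1 at 2.63 ± 0.0138, MXD3 at 2.32 ± 0.443 and MGA at 2.28 ± 0.403 RPKM were last, with overlap between each of them and the next. When the longest transcript was used as the length, the order in 786-O-Ctrl was the same, and in 786-O-VHL it became MYC, MAX, MXI1, MXD4, MNT, MXD3, MGA and MXD1.

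The level of MYC was then set against the summed level of the 5 MAX-binding repressors MXD1, MXD3, MXD4, MXI1 and MNT, as a description without a test. The ratio was 0.984 and 0.958 in the control libraries as against 2.29 and 2.70 in 786-O-VHL, a 2.56-fold difference. The summed level of the repressors was 26.3 and 27.0 RPKM in 786-O-Ctrl and 27.5 and 27.1 RPKM in 786-O-VHL. Over exon unions the numerator of the ratio differed between the groups and its denominator hardly did. The direction of the small difference in the sum depended on the length used, with a log2 difference of 0.03 over exon unions and -0.04 over longest transcripts. In CPM, without a length, the sum was higher with restored VHL (181 and 179) than in the control libraries (168 and 172), a log2 difference of 0.08 without overlap. The near-level sum in RPKM includes the fall of MXD3 from 6.31 to 2.32 RPKM over exon unions. The uncertainty of the MXD3 value therefore carries over to the sum and to the ratio, and no sum without MXD3 was made.

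Within the sum over exon unions, nearly level with MXD3 included, the composition was different. MXD4 made up 42.1% ± 0.636 of it in the controls and 31.8% ± 0.438 with restored VHL (SD, n = 2 each). MXD3 went from 23.7% ± 0.293 to 8.498% ± 1.70, and the uncertainty of its value carries over to all the shares. The share of MXI1 went up, from 18.8% ± 0.254 to 34.3% ± 3.55. MNT went from 11.99% ± 0.447 to 15.8% ± 1.27, and MXD1 from 3.45% ± 0.536 to 9.63% ± 0.140. MAX over the sum of all 7 other members was 0.0894 and 0.105 in the control libraries as against 0.102 and 0.0740 in 786-O-VHL, so that this ratio overlapped between groups.

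**Figure D3:**
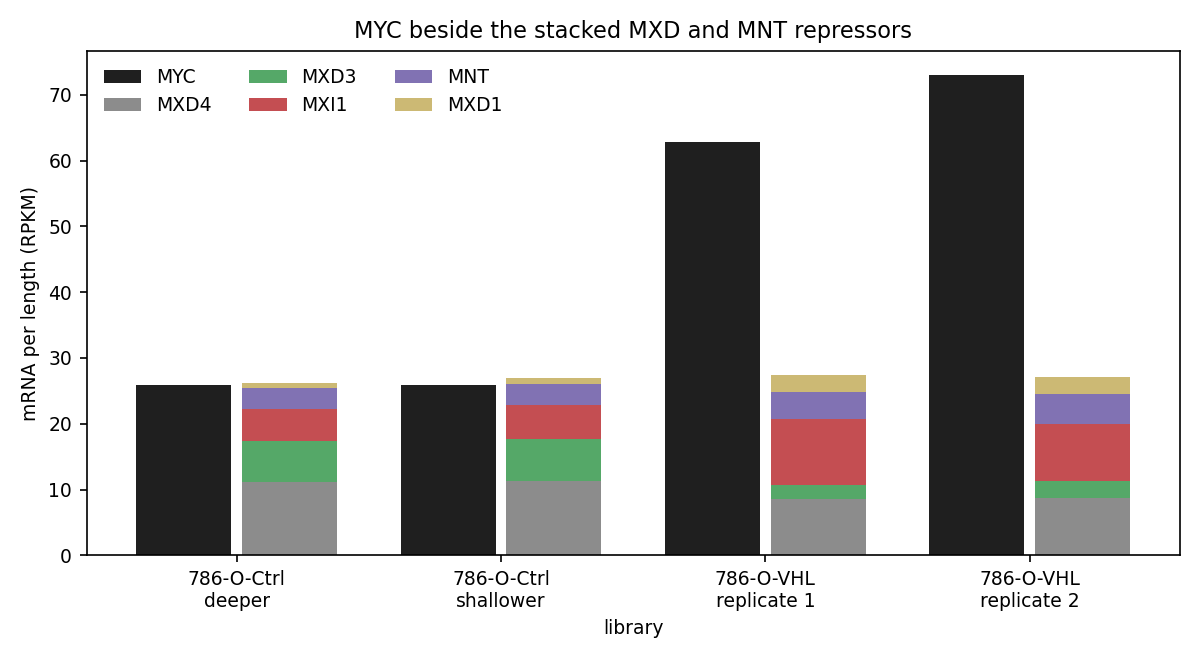
Level of MYC (black bars) beside the stacked levels of the 5 repressors (coloured by gene), in RPKM over exon unions, for each of the 4 libraries. MYC differs between the groups, the repressor sum stays between 26.3 and 27.5 RPKM, and within the stack MXI1 is taller and MXD3 shorter in 786-O-VHL.

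The genes around the network were described by lists written by hand with earlier results of these data known, and each count stands beside the 32.6% of all genes tested that were called higher and the 31.9% called lower. Log2 fold changes are given with the standard error of the same edgeR fit, and means with the SD of n = 2 libraries.

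Of the MYC paralogues and the parallel MLX arm, which senses glucose metabolites, 3 of 5 genes were tested. MYCL, a paralogue with few reads here, was at 1.42 and 1.33 CPM in 786-O-Ctrl and at 3.05 and 4.75 CPM in 786-O-VHL (log2 fold change 1.65, SE 0.326), and its call was lost without 786-O-VHL replicate 2. MLXIP, a partner of MLX, had a log2 fold change of -0.19 (SE 0.0768) that was lost in 6 of 11 alternatives and was 0.01 without 786-O-VHL replicate 2. MLX was not called, and MYCN and MLXIPL were not analysed here.

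The SIN3-HDAC corepressor, through which the MXD proteins and MNT act, was lower in more subunits than it was higher. Of its 15 genes, 7 were lower, 3 higher and 5 not called, with a median log2 fold change of -0.17. HDAC1, a catalytic histone deacetylase, went from 225 ± 0.455 to 132 ± 7.24 CPM (log2 fold change -0.79, SE 0.0663). HDAC2, another deacetylase of the list, went from 162 ± 2.29 to 140 ± 3.14 CPM (log2 fold change -0.20, SE 0.0645). It is named after its values were seen. SAP30, a small adaptor, had a log2 fold change of -0.66 (SE 0.125) and ING2, a reader of methylated histone H3, one of -0.83 (SE 0.236), which was lost under DESeq2, at equal depth, without the deeper 786-O-Ctrl library and without 786-O-VHL replicate 2. ARID4A and ARID4B, which bridge the complex to RB1, were higher by 0.82 (SE 0.113) and 0.39 (SE 0.0916), the latter lost without the shallower 786-O-Ctrl library or 786-O-VHL replicate 2, and the scaffold SIN3B by 0.36 (SE 0.0644). Without the deeper 786-O-Ctrl library the number of lower subunits was 4.

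The PRC1.6 partners of MGA, which itself was higher, moved in both directions. Of 11 tested, 6 were lower, 3 higher and 2 not called, with a median log2 fold change of -0.33. PCGF6, the subunit that defines this form of the complex, was at 26.0 and 24.3 CPM in 786-O-Ctrl and at 8.48 and 11.9 CPM in 786-O-VHL (log2 fold change -1.17, SE 0.139). TFDP1, the dimer partner of E2F6, had a log2 fold change of -1.16 (SE 0.0751), and WDR5, a scaffold shared with histone methyltransferases, one of -0.61 (SE 0.0668). Higher were RYBP (1.29, SE 0.283) and its paralogue YAF2 (0.62, SE 0.139), which bind the RING subunits, and TFDP2 (0.21, SE 0.083), whose call was lost in 5 of 11 alternatives, among them each fit without a 786-O-Ctrl library and the one without 786-O-VHL replicate 2. Of 15 germline genes that this complex silences, 10 were not analysed here and 4 were tested, with 2 higher, 1 lower and 1 not called. CPEB1, a regulator of cytoplasmic polyadenylation, was higher (1.17, SE 0.337) from 1.46 ± 0.0876 to 3.22 ± 0.235 CPM, and TDRKH, a piRNA factor, was lower (-0.72, SE 0.154), and both calls were lost without 786-O-VHL replicate 2. The other higher gene, MAEL, stayed under 1 CPM in all 4 libraries and is named after its values were seen.

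Of 14 MYC coactivators and binding partners, 5 were lower, 2 higher and 7 not called, and the median log2 fold change was -0.05. HCFC1, a chromatin cofactor that binds MYC directly, went from 217 ± 13.2 to 81.7 ± 9.61 CPM (log2 fold change -1.47, SE 0.0761). RUVBL1, an ATPase of the same acetyltransferase complexes as TRRAP, had a log2 fold change of -0.66 (SE 0.0685) and TRRAP itself, their scaffold, one of -0.47 (SE 0.0709). CCNT1, a cyclin of the elongation factor P-TEFb, was higher by 0.53 (SE 0.0833).

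Genes that act on the stability of the MYC protein moved in both directions. Of 13 tested, 6 were higher and 5 lower, with a median log2 fold change of -0.06. SKP2, a ubiquitin ligase subunit that acts on MYC and on the cell cycle inhibitor p27, went from 77.4 ± 0.583 to 22.6 ± 1.32 CPM (log2 fold change -1.74, SE 0.0884). CIP2A, which shields MYC from the phosphatase PP2A, had a log2 fold change of -1.37 (SE 0.0857), and AURKA, a mitotic kinase that stabilises MYC family proteins, one of -1.11 (SE 0.0693). FBXO32, another ligase subunit, rose from 13.3 ± 0.708 to 37.1 ± 2.68 CPM (log2 fold change 1.45, SE 0.119). PPP2R5A, the PP2A subunit that directs the enzyme to MYC, was higher by 0.61 (SE 0.077), and FBXL14 by 0.40 (SE 0.126), which was lost under DESeq2 and without the shallower 786-O-Ctrl library or 786-O-VHL replicate 2. FBXW7, the ligase subunit best known for MYC, was at 13.1 and 11.8 CPM in 786-O-Ctrl and at 10.9 CPM in both 786-O-VHL libraries and was not called (adjusted p = 0.276), and it is named after its value was seen.

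Of 11 genes tested that act on MYC transcription or on its mRNA, 4 were higher, 6 lower and 1 was not called. FUBP1, which binds the FUSE element upstream of MYC and activates it, went from 137 ± 1.01 to 53.2 ± 5.85 CPM (log2 fold change -1.42, SE 0.0761). HNRNPD, which binds AU-rich elements, and ELAVL1, which also does, had log2 fold changes of -0.97 (SE 0.0635) and -0.63 (SE 0.0691). TCF7L2, the effector of WNT signalling at the MYC gene, was higher by 0.96 (SE 0.122), IGF2BP3, which stabilises MYC mRNA, by 0.85 (SE 0.0717), and CNBP, a nucleic acid-binding protein that acts at the MYC promoter, by 0.37 (SE 0.0619). The other gene called higher was IGF2BP1, at 0.142 and 0.266 CPM in 786-O-Ctrl and at 1.70 and 1.25 CPM in 786-O-VHL. These values rest on 3 and 4 reads in 786-O-Ctrl and on 5 and 21 in 786-O-VHL. The far more abundant IGF2BP2 was lower, from 152 ± 1.36 to 125 ± 10.8 CPM (log2 fold change -0.32, SE 0.0683). IGF2BP1 and IGF2BP2 are named after their values were seen.

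Genes known to be activated by MYC were mostly lower in 786-O-VHL. Of 39 tested, 26 were lower, 4 higher and 9 not called, with a median log2 fold change of -0.41 against 0.02 for all genes. Their summed level was 8093 and 8031 CPM in the control libraries as against 5286 and 5459 CPM in 786-O-VHL, so that both control libraries were above both libraries with restored VHL. Such a sum is weighted to the genes most abundant in the controls, among them TFRC, NCL and NPM1 below, and does not describe each gene alike. TFRC, the transferrin receptor, went from 639 ± 4.49 to 152 ± 8.09 CPM (log2 fold change -2.06, SE 0.0666). HSPE1, the mitochondrial co-chaperonin, had a log2 fold change of -1.55 (SE 0.104) and TERT, the catalytic subunit of telomerase, one of -1.39 (SE 0.207). Among the nucleolar proteins, NCL was at 1061 and 1064 CPM in 786-O-Ctrl and at 611 and 574 CPM in 786-O-VHL, and NPM1 at 1024 and 1020 against 716 and 750 CPM. Not every abundant gene of the list was lower. GNL3 and WDR43, with log2 fold changes of 0.03 and 0.11, were not called. NCL, NPM1, GNL3 and WDR43 are named after their values were seen.

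The genes of this list that were higher included ODC1, the rate-limiting enzyme of polyamine synthesis, which went from 146 ± 1.11 to 227 ± 26.8 CPM (log2 fold change 0.67, SE 0.0693). RCL1, a ribosome biogenesis factor, was higher by 0.58 (SE 0.109) and POLR1B, a subunit of RNA polymerase I, by 0.48 (SE 0.0797). CCND2, a cyclin, had no read in either 786-O-Ctrl library and 16 reads over both 786-O-VHL libraries. It was 9.73-fold higher against a floor of 3 counts over the 786-O-Ctrl group, without the counting error of the 16 reads. It is named after its values were seen. Scaling by library totals alone, which moved the median of all genes to 0.15, gave 10 higher and 20 lower genes in this list. Of 34 tested genes of the list with a RefSeq promoter, 19 held CACGTG (55.9%), among them 12 of the 24 lower, 2 of the 3 higher and 5 of the 7 not called. The share was 8.77% of all genes with a promoter, whether or not they were tested here. Because the list was picked by hand as known MYC targets, the contrast is a description and no test of enrichment.

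Of 9 genes known to be repressed by MYC, 6 were higher, 1 lower and 2 not called, with a median log2 fold change of 0.61. Their summed level, which is also weighted to abundant genes, was 3810 and 3931 CPM in 786-O-Ctrl. In 786-O-VHL it was 3822 and 4041 CPM, so that it overlapped between the groups. CDKN1C, an inhibitor of cyclin-dependent kinases, was at 1.04 and 2.13 CPM in 786-O-Ctrl and at 7.12 and 6.06 CPM in 786-O-VHL (log2 fold change 2.05, SE 0.313). GADD45A, a stress-induced growth arrest gene, rose from 229 ± 19.6 to 696 ± 88.8 CPM (1.62, SE 0.0745), and CCNG2, an atypical cyclin of arrested cells, was higher by 0.95 (SE 0.111). NDRG1 went the other way, from 1256 ± 46.6 to 741 ± 2.41 CPM (log2 fold change -0.76, SE 0.0599). The part of hypoxia-inducible factors in the MYC-activated and MYC-repressed genes was not tested.

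**Figure D4:**
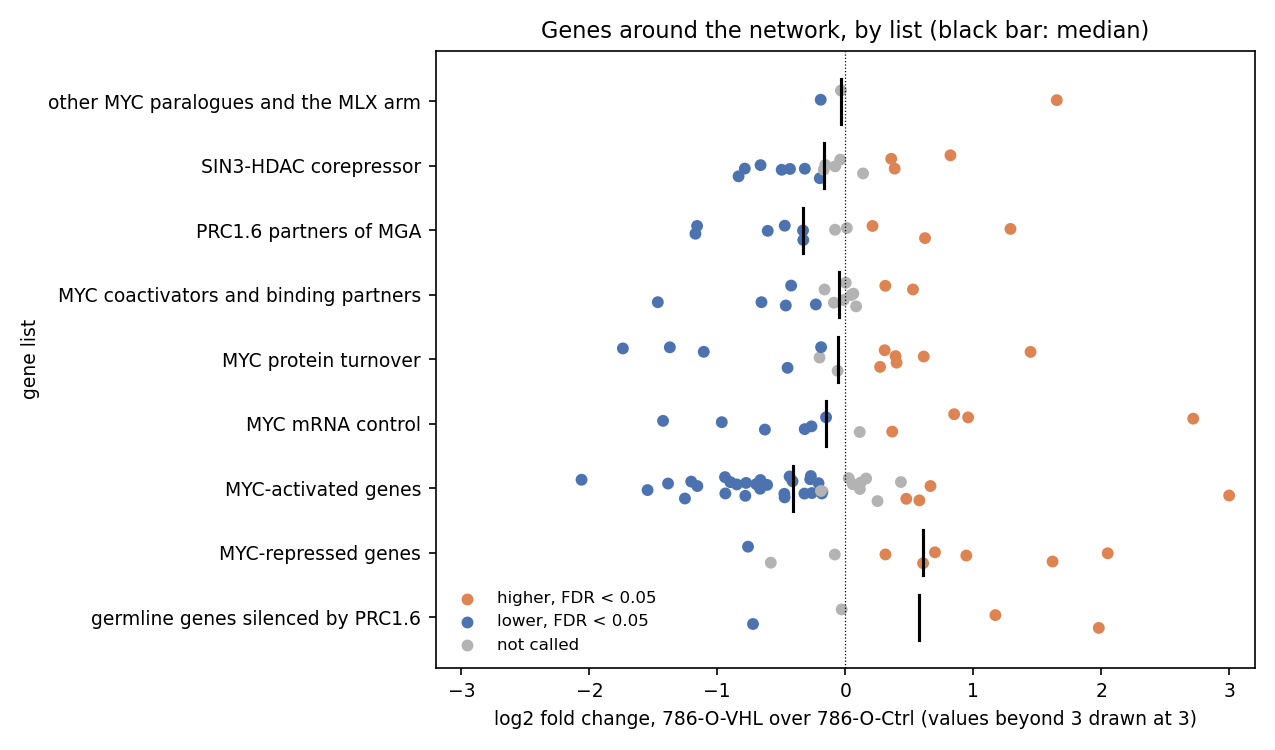
Log2 fold change in 786-O-VHL over 786-O-Ctrl of every tested gene of the lists around the network, with 1 point per gene coloured by its call at an adjusted p below 0.05 and a black bar at the median of each list; CCND2, without a read in 786-O-Ctrl, is drawn at 3. The median lies at -0.41 for the MYC-activated genes and at 0.61 for the MYC-repressed genes.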

How the data were processed

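Total RNA of both sublines (2 libraries each) was sequenced on Illumina instruments. The authors deposited 1 table of raw counts per gene, whole numbers without normalization. The submitters' processing notes name CASAVA, STAR and hg19. How reads were counted, by which annotation and whether by strand, is not given in the sources used here. Both 786-O-Ctrl columns carry the same replicate number and were used as replicates without a number.

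Counts were filtered with filterByExpr (minimum count 10, which removed 577 genes), scaled by TMM (factors 0.951 to 1.05) and tested with the quasi-likelihood F test of edgeR 4.0.16 in R 4.3.3, with a single term for the group and Benjamini-Hochberg adjustment over 12335 genes. The common dispersion was 0.00186. Libraries of 1 group differed beyond sampling noise (chi-square per degree of freedom 2.25 and 2.76), so all 4 were kept apart. With 2 libraries against 2, an exact permutation test of a single gene could not go below p = 0.333, and none was used. Confidence intervals are at 95%. Values from a count of 0 use 3 counts in its place and cover the counting error of that 0 only, not that of the other group.

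Lengths and GRCh37 coordinates came from GENCODE v44 lifted to GRCh37, in which 12749 of the 12912 identifiers were found. Promoters of GRCh38.p14 came from RefSeq, and no coordinates were converted.

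The members and lists were chosen with earlier results of these data known, and no list was tested as such. Named genes are the members, VHL, the 3 genes nearest to MYC, and of each list other than markers at most 3 per direction with the largest absolute log2 fold change at an adjusted p below 0.05 and a mean of at least 1 CPM. The values of 1 gene that this rule names are not reported here.

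On counts simulated for this comparison (12207 genes), edgeR recovered 89 of 98 tested genes changed by 1 and 99 of 100 changed by 2 on the log2 scale, with 7 false calls. The simulation changed 100 genes at each size and used dispersions fitted to these same libraries. In the data 64.5% of the genes tested were called, so the false calls do not measure the error rate there.

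Alternatives were DESeq2 1.42.0, limma-voom (limma 3.58.1), RLE size factors, library totals alone, no filter, at least 10 counts in every library, thinning to 2807779 counts, each library left out in turn, and other gene lengths. The thinning was a single random draw, and the sampling error of that draw was not measured. All values and calls at equal depth come from it.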

Additional observations from a re-analysis of the deposited data

How the results depend on the processing

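No member changed direction under any of the 11 alternatives. MYC, MAX, MXD1, MXD3, MXI1 and MGA stayed past the threshold in all of them, with log2 fold changes between 1.27 and 1.54 for MYC, 0.40 and 0.86 for MAX, 1.34 and 1.73 for MXD1, -1.66 and -1.07 for MXD3, 0.79 and 1.01 for MXI1, and 0.55 and 0.96 for MGA. At equal depth MXD4 (-0.27) and MNT (0.33) missed it, which left 1 lower member, while 52.5% of all genes were called there. With a library left out, MNT ranged from 0.35 to 0.50 and fell short without 786-O-VHL replicate 2. The cause of these losses was not tested. The log2 difference of MYC over the repressors was 1.42 with longest transcripts, 1.31 in CPM, and 1.24 to 1.47 with a library left out. Scaling by library totals alone raised the median of all genes from 0.02 to 0.15 and the share of calls that were higher from 50.5% to 62.1%.

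Of the lists, the MYC paralogues and MLX arm had 0 lower genes under DESeq2, with library totals alone and at equal depth, 0 higher under a minimum of 10 counts per library and at equal depth, and 0 to 1 of each with a library left out. The MYC-activated genes had 10 higher with library totals alone. The germline genes had 0 higher under DESeq2, under the minimum of 10 counts per library and at equal depth, 0 lower at equal depth, and with a library left out 0 to 2 higher and 0 to 1 lower. Lower SIN3-HDAC subunits numbered 4 to 8 with a library left out. Where a minimum of 10 counts in every library gave fewer calls, fewer genes of the list were tested. At equal depth only 2 genes of the MYC paralogue and MLX list and 1 germline gene were tested, and the others could not be called. Counts of other lists stayed within 1.5 times under every alternative. No paired analysis was possible because both 786-O-Ctrl columns carry the same replicate number.

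The shallowest library, 786-O-VHL replicate 1, held 2807779 counts and the deepest 7.89 times as many. At equal depth MXD1 and MXD3, with 49 and 28 reads in that library, kept their calls, while MXD4 and MNT, with 175 and 105, did not. With 1 subline per group, VHL and any other difference between the sublines cannot be told apart.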
